A study of Mus musculus with 12 samples.

Results

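The genes described here encode matrix metalloproteinases, ADAM proteases and their inhibitors: Mmp9, Mmp14, Adam8, Adam10, Adam12, Adam15, Adam17, Adam19, Timp1 and Timp2. They are 10 of 20857 genes that could be joined over all libraries, they were taken by name, and 9 of the 10 passed the filter on low counts, Timp1 being the exception. The cells were live CD45+ CD4+ regulatory T cells (Treg) that carried both Foxp3-driven EGFP and CD69, sorted from thrombus, vein wall and spleen. All groups came from DEREG mice, which are C57BL/6 mice with the transgene Tg(Foxp3-DTR/EGFP) of line 23.2Spar/Mmjax; under Foxp3 control it encodes a diphtheria toxin receptor fused to EGFP; no age, sex or toxin treatment is given in the labels. All mice had a ligated inferior vena cava, a flow reduction model of deep vein thrombosis, and tissue was taken at day 14, so the spleen samples also came from mice with a thrombus. Each tissue had 4 libraries, which the labels number 1 to 4 as exp in each tissue without saying what a number shares. Spleen 3 and 4, and likewise vein wall 3 and 4, were so close in their counts that each pair was summed and counted as 1 sample, which left 4 thrombus, 3 vein wall and 3 spleen samples.

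Matrix metalloproteinases cut components of the extracellular matrix, either after secretion, as with MMP-9, or at the cell surface, as with MMP-14. ADAM proteases sit in the membrane and release the outer part of other membrane proteins; ADAM10 and ADAM17 do this on T cells to cytokines and their receptors. Tissue inhibitors of metalloproteinases (TIMPs) block the active site of these enzymes. Matrix proteases are known for their part in the remodelling of a venous thrombus and of the wall around it, where macrophages are a known source of them.

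The 8 protease genes share the coding stretch of the zinc-binding site, at which the catalytic metal ion is held by histidines. It is shown because it is the feature that makes these genes a family: in each line, the capitals mark the codons for the conserved histidines, glutamate and glycine, and the stretch is 33 bases of the GENCODE M21 coding sequence (GRCm38), written 5′ to 3′ on the coding strand.
Mmp9: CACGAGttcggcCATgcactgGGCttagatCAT
Mmp14: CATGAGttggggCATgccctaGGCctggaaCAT
Adam8: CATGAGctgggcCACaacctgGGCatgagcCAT
Adam10: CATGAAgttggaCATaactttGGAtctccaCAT
Adam12: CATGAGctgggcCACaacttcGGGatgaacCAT
Adam15: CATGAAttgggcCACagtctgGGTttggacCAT
Adam17: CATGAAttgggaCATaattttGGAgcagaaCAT
Adam19: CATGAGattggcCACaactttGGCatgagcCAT
The Mmp9 stretch lies at chr2:164951133-164951165 (plus strand), that of Mmp14 at chr14:54437627-54437659 (plus), that of Adam8 at chr7:139987893-139987925 (minus) and that of Adam12 at chr7:133961158-133961190 (minus). The Adam15 stretch lies at chr3:89344780-89344812 (minus), that of Adam17 at chr12:21336732-21336764 (minus) and that of Adam19 at chr11:46125050-46125082 (plus). The Adam10 stretch is split by an intron and reaches over chr9:70754296-70761585 (plus). All are exonic and coding. Adam10 and Adam17, the main sheddase genes, were identical at 26 of the 33 bases, Adam8 and Adam12 at 29, Adam8 and Adam19 at 29, Mmp9 and Mmp14 at 25, and Adam10 and Adam8 at 19. No such stretch was found in the coding sequences of Timp1 and Timp2.

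Counts are total exon reads, given as CPM on library sizes scaled by the trimmed mean of M values (TMM). Levels of different genes are compared only as CPM per kb of exon. Total exon reads ranged from 9719151 to 55386086 per library, and 0 reads in a sample allow up to 0.0388 to 0.317 CPM. Strand was not marked and no molecular identifiers were used, which means that these floors cover counting error only. The deposited files had 3 layouts with different gene models, called sets here: thrombus 1 and spleen 1 were set 1, thrombus 2, vein wall 1 and spleen 2 were set 2, and the other 7 libraries were set 3. The labels leave unsaid if 1 mouse or a pool stands behind each library; the spread on which the p-values rest may thus be partly technical. In RNA of sorted cells, fewer cells of a type and less RNA per cell cannot be told apart.

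The 8 Treg marker genes had reads in every group, and their summed level ranged from 4488 to 6155 CPM in thrombus samples, from 4863 to 6660 CPM in vein wall samples and from 4448 to 6032 CPM in spleen samples. Macrophage and monocyte markers summed to 1768 CPM in thrombus 2 and to 23.8 to 268 CPM in the other 9 samples. Neutrophil markers summed to at most 8.63 CPM in any sample. B and plasma cell markers summed to 234 to 988 CPM in thrombus samples and 401 to 1357 CPM in vein wall samples, against 167 to 314 CPM in spleen samples. Erythroid markers summed to 6.81 to 2043 CPM in thrombus samples and 2.47 to 50.8 CPM in vein wall samples, against 59.5 to 1815 CPM in spleen samples. Markers of pancreatic acinar cells summed to 21.6 to 473 CPM in thrombus samples and 52.8 to 275 CPM in vein wall samples, against 22.5 to 116 CPM in spleen samples. The part of such cells in the results below was not tested. Fibroblast markers summed to 9.94 to 20.6 CPM in thrombus samples, to 13.1 to 60.7 CPM in vein wall samples and to 0.0536 to 4.0 CPM in spleen samples, where Col1a2, Col3a1, Pdgfra and Pdgfrb were at 0. Of all marker genes, 1 passed the test: Try4, a pancreatic trypsin gene, had log2 fold changes of 10.89 ± 1.67 in thrombus (adjusted p = 0.00549, edgeR) and 10.03 ± 1.64 in vein wall (adjusted p = 0.0131), both against spleen (SE). With file set as a covariate Cd69 and the pancreas gene Clps passed as well, in the same direction.

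Per kb of exon, Timp2, Adam10, Adam17 and Adam19 stood above the rest. Their mean levels over the 10 samples were 17.4, 13.2, 8.31 and 6.39 CPM per kb. Together these 4 genes made up 79.2% to 93.1% of the summed level of all 10 genes in a sample. Adam8 followed with 2.30, Adam15 with 2.19, Mmp9 with 1.49 and Mmp14 with 0.443 CPM per kb. Timp1 had 0.231 and Adam12 0.104 CPM per kb, and only 1.2% of the tested genes had a lower level than Adam12, whereas 70.8% lay below Timp2. The order of neighbours was not firm at the top: Timp2 exceeded Adam10 in 3 of 10 samples. Adam10 exceeded Adam17 in 8 of 10 samples, Adam17 exceeded Adam19 in 7, Adam19 exceeded Adam8 in 8, and Adam8 exceeded Adam15 in 6. Lower down, Adam15 exceeded Mmp9 in 8 samples, Mmp9 exceeded Mmp14 in 9, Mmp14 exceeded Timp1 in 8, and Timp1 exceeded Adam12 in 2.

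**Figure D1:**
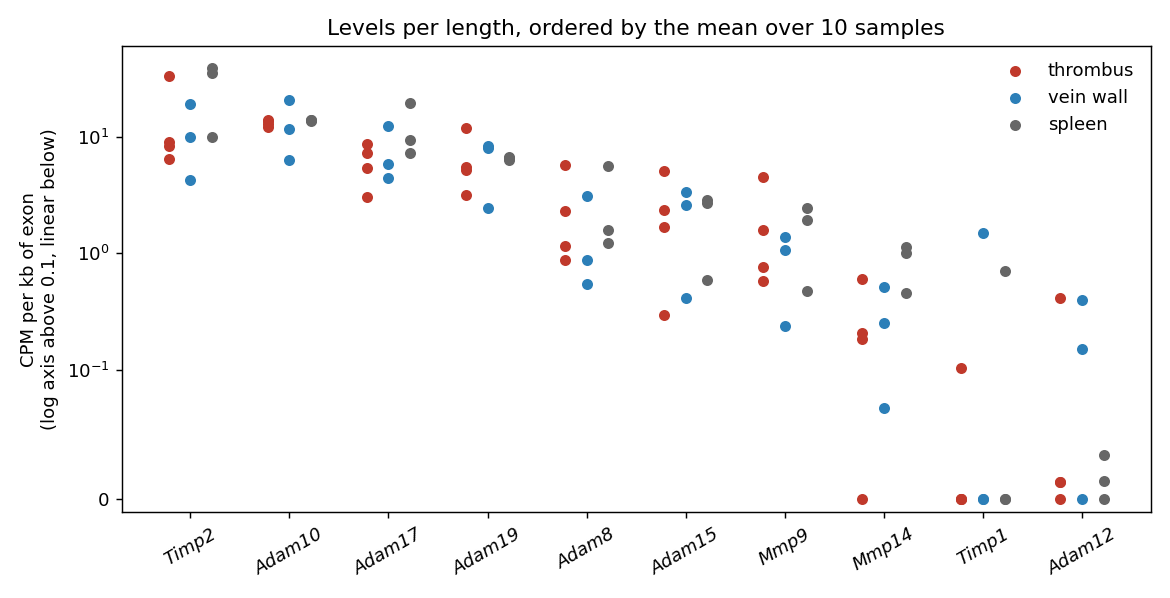
Level of each gene in CPM per kb of exon (vertical axis, log scale above 0.1 and linear below), with 1 point per sample and genes ordered by the mean over 10 samples. Thrombus samples are red, vein wall samples blue and spleen samples grey; Timp2 and Adam10 averaged 17.4 and 13.2, and Timp1 and Adam12 had points at 0 in every tissue.

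The study's design asks how Treg in the thrombus and in the vein wall differ from those of the spleen, and from each other. None of the 9 tested genes passed at an adjusted p under 0.05 in any of the 3 comparisons (edgeR quasi-likelihood F test, Benjamini-Hochberg adjustment over 11706 genes), and none of them had an unadjusted p under 0.05. DESeq2 called none either. The background was low: 0.145% of tested genes were called in thrombus against spleen (17 genes, all higher), 0.111% in vein wall against spleen (13 genes, all higher), and 0% in thrombus against vein wall, where 341 genes had an unadjusted p under 0.05 and DESeq2 called 10. At an unadjusted p under 0.05 the shares were 4.13%, 5.47% and 2.91% of tested genes. Between thrombus and spleen, 5 of the 9 fold changes lay below 0, against 47.8% of all tested genes, and the median log2 fold change of the 9 was -0.05 against 0.03 over all genes. Between vein wall and spleen, 8 of 9 lay below 0, against 51.0% of all genes, with a median of -0.79 against -0.01; Adam12 was the 1 above 0. Between thrombus and vein wall, 3 of 9 lay below 0, against 47.7% of all genes.

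**Figure D2:**
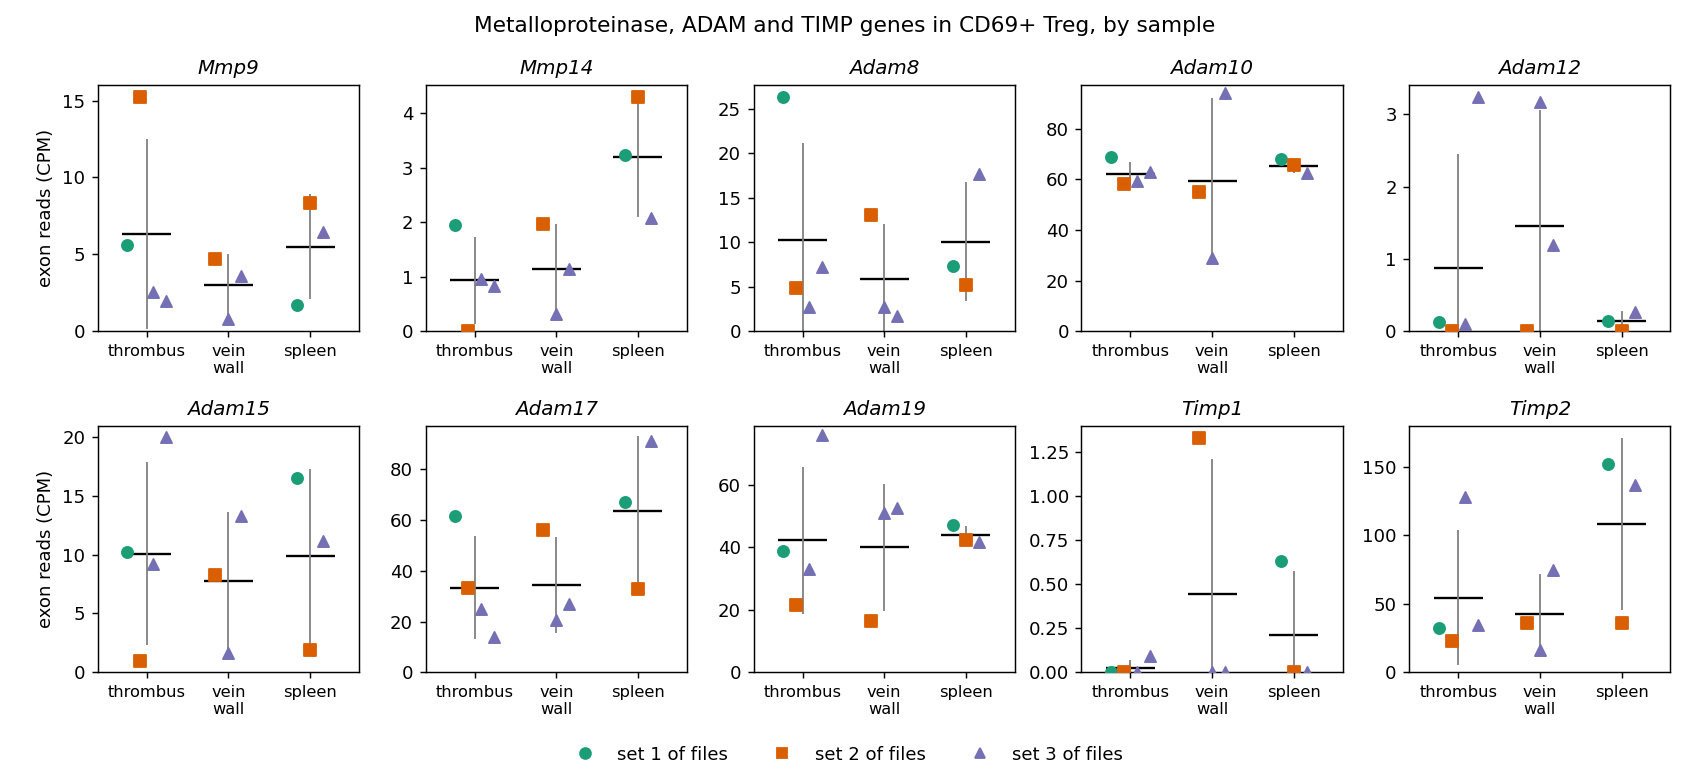
Exon reads of the 10 genes in CPM (vertical axis, from 0, scaled per gene) in each thrombus, vein wall and spleen sample; points are samples, colour and shape give the set of files, horizontal lines are group means and grey lines ± 1 SD (cut at 0; n = 4, 3 and 3). Mmp14 is the gene whose thrombus and vein wall points all lie below the spleen points, and Adam10 has the tightest points in thrombus and spleen.

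Among the metalloproteinase genes, Mmp9 (chromosome 2, 164940780 to 164955850, plus strand) encodes the secreted gelatinase B, which cuts denatured collagen and basement membrane collagen. It had 5.58, 15.3, 2.54 and 1.95 CPM in thrombus 1 to 4, against 4.68, 0.805 and 3.57 CPM in vein wall 1, 2 and 3-4, and 1.68, 8.31 and 6.47 CPM in spleen 1, 2 and 3-4. The groups overlapped, and the highest value of all was that of thrombus 2, the sample with the highest macrophage marker sum; the part of those cells in the Mmp9 level was not tested. Within that sample Lyz2, the macrophage lysozyme gene, had 1349 CPM, C1qb 152 CPM and the monocyte receptor gene Cd14 135 CPM. Other markers of that list were low there, with Csf1r at 5.98, Mrc1 at 0.112 and Fcgr1 at 0 CPM. Spleen 2, with the next highest Mmp9 level, had a macrophage marker sum of 106 CPM. Vein wall 1, with 4.68 CPM of Mmp9, had a sum of 268 CPM. The log2 fold change of Mmp9 was 0.21 ± 1.18 in thrombus and -0.86 ± 1.26 in vein wall against spleen, and 1.07 ± 1.21 in thrombus against vein wall (SE). Without thrombus 2 the thrombus value became -0.72. In set 1 the difference between thrombus and spleen was 1.68, in set 2 it was 0.87 and in set 3 it was -1.51 (log2 CPM).

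Mmp14 (chromosome 14, 54431612 to 54445364, plus strand) encodes a membrane-bound metalloproteinase that activates pro-MMP-2 and works with TIMP-2 in doing so. It had 1.95, 0, 0.952 and 0.834 CPM in thrombus 1 to 4, against 1.96, 0.322 and 1.15 CPM in vein wall 1, 2 and 3-4, and 3.23, 4.29 and 2.08 CPM in spleen 1, 2 and 3-4. In CPM, every thrombus and vein wall sample was below every spleen sample. Mmp14 was the only one of the 9 tested genes without overlap in CPM in either comparison. Of all tested genes, 2.49% were lower in every thrombus sample than in every spleen sample, and 6.48% were so in vein wall. The exon length of Mmp14 differed between sets (3213, 3801 and 4557 bases in sets 1, 2 and 3). Per kb of exon the groups overlapped, as thrombus 1 (0.606) and vein wall 1 (0.516) lay above spleen 3-4 (0.457). The mean was 0.933 ± 0.798 CPM in thrombus and 1.14 ± 0.820 CPM in vein wall, against 3.20 ± 1.10 CPM in spleen (SD, n = 4, 3 and 3). The log2 fold change was -1.77 ± 1.67 in thrombus (95% interval -5.27 to 1.72) and -1.48 ± 1.81 in vein wall (-5.27 to 2.31), so the difference did not exceed the modelled spread of a gene with so few reads. Without thrombus 1 the thrombus value became -2.43, without vein wall 1 the vein wall value became -2.08, and with file set as a covariate and without thrombus 2 the thrombus value became -0.96. These values rest on 0 to 31 exon reads in each thrombus or vein wall library and 46 to 96 in each spleen library. Within sets, thrombus was below spleen in sets 1, 2 and 3 (means of 1.95 against 3.23, of 0 against 4.29 and of 0.893 against 2.08 CPM), and vein wall was below spleen in sets 2 and 3 (1.96 against 4.29 and 0.735 against 2.08 CPM).

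Adam10 (chromosome 9, 70678997 to 70780229, plus strand), the sheddase gene that initiates Notch cleavage after ligand binding, was the steadiest of the 9. It had 68.6, 58.1, 59.3 and 62.7 CPM in thrombus 1 to 4, against 55.0, 29.1 and 93.9 CPM in vein wall 1, 2 and 3-4, and 67.8, 65.6 and 62.3 CPM in spleen 1, 2 and 3-4. The thrombus and spleen samples lay in a narrow common range, while the vein wall samples held both the lowest and the highest value. The SD of its log2 CPM over the 10 samples was 0.42, and 11.03% of tested genes had a smaller one. The log2 fold change was -0.07 ± 0.41 in thrombus (95% interval -0.93 to 0.79) and -0.14 ± 0.44 in vein wall (-1.06 to 0.79) against spleen. Reads that matched Adam10 were unique in every set.

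Adam17 (chromosome 12, 21323509 to 21373632, minus strand) encodes the enzyme that releases tumour necrosis factor from the cell surface. It had 61.7, 33.2, 25.0 and 14.1 CPM in thrombus 1 to 4, against 56.0, 20.6 and 26.8 CPM in vein wall 1, 2 and 3-4, and 67.2, 32.9 and 91.2 CPM in spleen 1, 2 and 3-4. The means were 33.5 ± 20.4 CPM in thrombus and 34.5 ± 18.9 CPM in vein wall, against 63.7 ± 29.3 CPM in spleen (SD). In CPM the groups overlapped through spleen 2. The exon length of Adam17 differed between sets (7154, 4550 and 4649 bases in sets 1, 2 and 3). Per kb of exon, vein wall 1 (12.3) lay above both spleen 1 (9.39) and spleen 2 (7.22). Its log2 fold changes of -0.93 ± 0.54 in thrombus (95% interval -2.07 to 0.21, adjusted p = 1.00, unadjusted p = 0.104, edgeR) and -0.89 ± 0.59 in vein wall (-2.12 to 0.35, adjusted p = 0.961) did not pass. With file set as a covariate the thrombus value was -1.06 ± 0.50 (unadjusted p = 0.0486, adjusted p = 0.733, edgeR). The sets did not show the same difference. In set 3 thrombus averaged 19.5 CPM and vein wall 23.7 CPM, against 91.2 CPM in spleen, which is a log2 difference of -2.28 and -1.95. In set 1 the thrombus difference was -0.12 and in set 2 it was 0.01, while vein wall in set 2 was 0.77 above spleen. Of the 7154 exonic bases of Adam17 in GENCODE M21, 311 lie opposite those of Iah1, from whose reads they cannot be told apart without strand.

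Adam19 (chromosome 11, 46055992 to 46147343, plus strand), also called meltrin beta and known for shedding neuregulin, had 38.8, 21.5, 33.2 and 75.8 CPM in thrombus 1 to 4, against 16.5, 51.0 and 52.6 CPM in vein wall 1, 2 and 3-4, and 47.3, 42.5 and 41.7 CPM in spleen 1, 2 and 3-4. The spleen samples were close to each other and lay inside the range of both other tissues. Adam19 had a log2 fold change of -0.05 ± 0.51 in thrombus and -0.13 ± 0.55 in vein wall. Adam15 (chromosome 3, 89338542 to 89349996, minus strand), whose product carries a disintegrin domain that can bind integrins, had 10.3, 0.950, 9.20 and 19.9 CPM in thrombus 1 to 4, against 8.29, 1.61 and 13.3 CPM in vein wall 1, 2 and 3-4, and 16.5, 1.88 and 11.2 CPM in spleen 1, 2 and 3-4. Each tissue had a sample under 2 CPM, and the groups overlapped over their whole range. The log2 fold change of Adam15 was 0.03 ± 1.01 in thrombus and -0.35 ± 1.08 in vein wall. Both genes share exonic bases with opposite-strand genes, namely 1263 of 6145 bases of Adam15 with 4731419I09Rik, and 587 and 480 of 7115 bases of Adam19 with Gm16033 and Gm16034. These opposite-strand genes were listed with exons in set 1 but not in sets 2 and 3. Unique reads made up 31.8% of the exon reads of Adam15 in set 1, 100% in set 2 and 36.2% in set 3, and 31.7%, 100% and 48.2% of those of Adam19. The levels of these genes across sets are therefore uncertain, and set 2 used other gene models. With unique exon reads alone Adam15 had a log2 fold change of -0.11 in thrombus and 0.17 in vein wall against spleen, the opposite sign of those above.

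Adam8 (chromosome 7, 139978932 to 139992562, minus strand), a gene of leukocytes whose product sheds adhesion molecules, had 26.3, 4.81, 2.75 and 7.23 CPM in thrombus 1 to 4, against 13.04, 2.74 and 1.70 CPM in vein wall 1, 2 and 3-4, and 7.36, 5.14 and 17.6 CPM in spleen 1, 2 and 3-4. The highest sample of each tissue came from a different set: set 1 for thrombus, set 2 for vein wall and set 3 for spleen. Adam8 had a log2 fold change of 0.03 ± 0.99 in thrombus and -0.79 ± 1.06 in vein wall against spleen. Within sets the thrombus difference was 1.83, -0.10 and -1.96 in sets 1, 2 and 3, and the vein wall difference was 1.33 in set 2 and -2.98 in set 3. Without thrombus 1 the thrombus value became -1.03, without vein wall 1 the vein wall value became -2.15, and without spleen 3-4 the vein wall value became -0.10. Against spleen, the direction in thrombus thus turned with the set and with single samples; that in vein wall differed between sets but stayed below 0 when single samples were left out.

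Adam12 (chromosome 7, 133883199 to 134232146, minus strand), the meltrin alpha gene, known mainly from mesenchymal cells, was close to absent as exon reads. It had 0.130, 0, 0.106 and 3.24 CPM in thrombus 1 to 4, against 0, 3.17 and 1.20 CPM in vein wall 1, 2 and 3-4, and 0.140, 0 and 0.272 CPM in spleen 1, 2 and 3-4. The values above 1 CPM were those of thrombus 4, vein wall 2 and vein wall 3-4; all 3 set 2 samples were at 0 reads. The value of thrombus 4 rests on 35 exon reads and that of vein wall 2 on 59. The log2 fold change of Adam12 was 2.56 ± 2.31 in thrombus (95% interval -2.28 to 7.41) and 3.31 ± 2.45 in vein wall (-1.84 to 8.45). Adam12 passed the filter on low counts only with thrombus 4 included, so its place among the tested genes depends on that sample. Vein wall 2, with 3.17 CPM, also had the highest fibroblast marker sum of 60.7 CPM, of which Dcn, the decorin gene, was 49.6 CPM. Thrombus 4, with the highest Adam12 level, had a fibroblast marker sum of 16.1 CPM. Vein wall 1 and thrombus 2 had sums of 29.0 and 20.6 CPM, with 0 exon reads of Adam12. The part of such cells in the Adam12 level was not tested.

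Most reads inside the Adam12 gene were intronic. Every one of the 12 libraries had between 14 and 594 intron reads, against 0 to 59 exon reads. Scaled to CPM by the exon reads of the joined genes, intron reads of Adam12 came to 11.3, 2.35, 39.2 and 27.7 in thrombus 1 to 4, against 2.71, 12.4, 25.9 and 24.6 in vein wall 1 to 4, and 7.27, 1.67, 1.33 and 0.668 in spleen 1 to 4. Thrombus 3 had the highest intron level with 1 exon read. The gene spans 348948 bases. Counting exon and intron reads together, a choice made after the data were seen, gave log2 fold changes of 2.52 ± 0.96 in thrombus (unadjusted p = 0.0181, adjusted p = 0.779, edgeR) and 2.34 ± 0.98 in vein wall (unadjusted p = 0.0296, adjusted p = 0.812, edgeR), which did not pass.

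**Figure D3:**
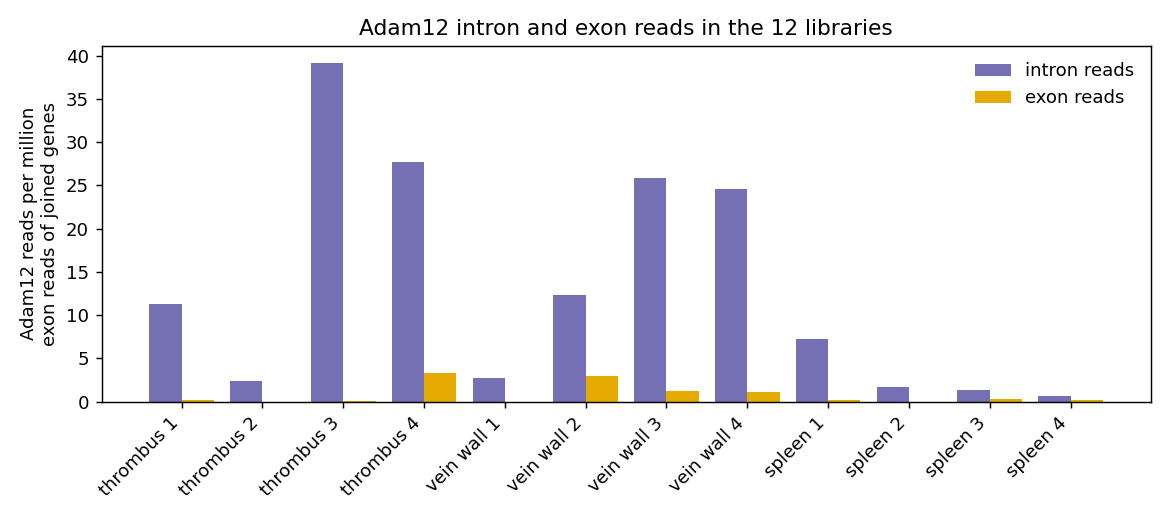
Adam12 reads in CPM, scaled by the exon reads of the joined genes (vertical axis, from 0) in the 12 libraries, thrombus first, then vein wall, then spleen; purple bars are intron reads and yellow bars exon reads. Intron reads reached 39.2 in thrombus 3, whereas spleen 4 had 0.668, and exon reads were fewer than intron reads in every library.

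Of the inhibitors, Timp2 (chromosome 11, 118301069 to 118355740, minus strand) encodes a secreted inhibitor of many metalloproteinases that also takes part in the activation of pro-MMP-2 by MMP-14. It had 32.4, 23.1, 128 and 34.9 CPM in thrombus 1 to 4, against 35.7, 16.5 and 74.8 CPM in vein wall 1, 2 and 3-4, and 152, 36.0 and 137 CPM in spleen 1, 2 and 3-4. Spleen 1, spleen 3-4 and thrombus 3 were above 100 CPM, and all others were under 75 CPM; spleen 2 lay among the thrombus and vein wall samples. The means were 54.6 ± 49.2 CPM in thrombus and 42.3 ± 29.7 CPM in vein wall, against 108.2 ± 63.0 CPM in spleen (SD). Timp2 had a log2 fold change of -0.99 ± 0.66 in thrombus (95% interval -2.40 to 0.42, adjusted p = 1.00, edgeR) and -1.35 ± 0.72 in vein wall (-2.90 to 0.19, adjusted p = 0.930), and neither passed. Without thrombus 3 the thrombus value became -1.84 (unadjusted p = 0.00652, adjusted p = 0.669, edgeR), and without vein wall 3-4 the vein wall value became -2.05 (adjusted p = 0.784). These are the largest changes. Over all fits that left out a library or sample, the values ran from -1.84 to -0.67 in thrombus and from -2.05 to -0.94 in vein wall. Within sets the thrombus difference was -2.22, -0.64 and -1.03 in sets 1, 2 and 3, and the vein wall difference was -0.01 in set 2 and -1.96 in set 3, so thrombus lay below spleen in each set. The share of all tested genes that did so is not given here.

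Timp1 (chromosome X, 20870166 to 20874735, plus strand), the inhibitor gene whose product binds pro-MMP-9, did not pass the filter. It had 1 exon read in thrombus 4, 21 in vein wall 1, 9 in spleen 1 and 0 in the other 9 libraries. That is 0, 0, 0 and 0.0927 CPM in thrombus 1 to 4, 1.33, 0 and 0 CPM in vein wall 1, 2 and 3-4, and 0.631, 0 and 0 CPM in spleen 1, 2 and 3-4. Only 5 of the 21 reads of vein wall 1 and 7 of the 9 of spleen 1 were unique matches. No difference between tissues was detectable with so few reads.

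**Figure D4:**
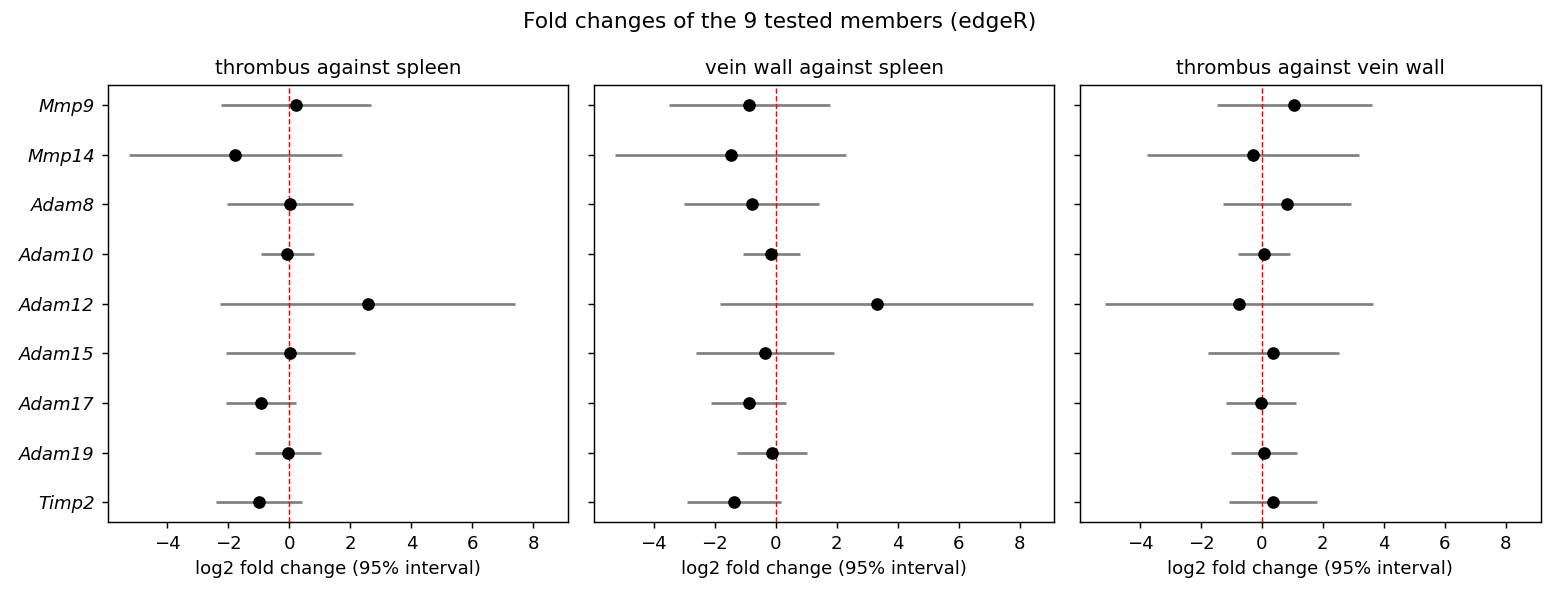
Log2 fold changes (points, horizontal axis) with 95% intervals (lines) of the 9 tested genes in thrombus against spleen, vein wall against spleen, and thrombus against vein wall, from edgeR; the dashed line marks 0. Every interval spans 0; that of Adam10 in thrombus is the narrowest of that panel (-0.93 to 0.79), and that of Adam12 is the widest (-2.28 to 7.41).

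Promoter stretches of the steadiest gene and of the gene with the fewest reads are shown for their content of CG dinucleotides, which are marked in capitals; each holds the 150 bases before the RefSeq start of transcription (GRCm38.p6), 5′ to 3′ on the strand of the gene.
Adam10, chr9:70678832-70678981, plus strand: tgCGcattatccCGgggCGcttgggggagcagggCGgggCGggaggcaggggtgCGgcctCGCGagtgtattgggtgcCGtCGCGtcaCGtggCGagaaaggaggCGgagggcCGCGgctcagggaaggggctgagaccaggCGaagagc
Timp1, chrX:20870016-20870165, plus strand: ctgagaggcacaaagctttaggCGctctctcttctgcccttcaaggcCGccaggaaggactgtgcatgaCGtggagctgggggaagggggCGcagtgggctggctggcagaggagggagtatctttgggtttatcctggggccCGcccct
The Adam10 stretch holds 17 CG, and that of Timp1 holds 5; the letters CG read the same on both strands. In the full 300-base windows, Adam10 had 32 CG, more than 90.5% of 32851 promoters, Adam17 had 30 (88.3%), and Timp2 and Adam15 had 25 each (81.6%). Mmp14 had 10 (56.5%), Timp1 had 8 (51.4%) and Adam8 had 6 (43.6%), while the 3 Adam19 starts had 5, 11 and 5. The table matched 8 of the 10 genes, all but Mmp9 and Adam12. Beside these counts, the mean levels were 13.2 CPM per kb for Adam10, 8.31 for Adam17, 17.4 for Timp2 and 2.19 for Adam15. They were 0.443 for Mmp14, 0.231 for Timp1, 2.30 for Adam8 and 6.39 for Adam19. A relation between CG content and level was not tested.

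Other genes of the system were followed as lists, and none of their genes passed in any comparison with tissue as the single factor (0 called by edgeR, with unadjusted p under 0.05 for 3, 6 and 2 of the tested genes in thrombus against spleen, vein wall against spleen and thrombus against vein wall). Over all tested genes the shares with an unadjusted p under 0.05 were 4.13%, 5.47% and 2.91% in that order. The list counts were not tested against these shares. Of 21 other matrix metalloproteinase genes 17 had a read and 3 were tested; of 28 other ADAM genes 21 had a read and 5 were tested; of 19 ADAMTS genes, secreted relatives of the ADAMs, all had a read and 3 were tested. Mmp11 was the highest per kb of the other matrix metalloproteinase genes (1.31 CPM per kb) and Adam9 of the other ADAM genes (0.885). Adamts6 and Adamts10 stood above these, with 5.06 and 4.81 CPM per kb. Mmp11, the stromelysin 3 gene, had 3.45 ± 2.30 CPM in thrombus and 4.67 ± 6.41 CPM in vein wall, against 1.59 ± 0.856 CPM in spleen (SD). Mmp10, the stromelysin 2 gene, had 1.82, 0, 4.65 and 0.185 CPM in thrombus 1 to 4, against 0.570, 3.28 and 1.65 CPM in vein wall 1, 2 and 3-4, and 0.210, 0 and 0.0777 CPM in spleen 1, 2 and 3-4. Its log2 fold change was 4.08 ± 2.26 in thrombus and 4.23 ± 2.32 in vein wall (adjusted p = 1.00 and 0.930, edgeR). Mmp3, the stromelysin 1 gene, had reads only in vein wall 2 (5.48 CPM) and vein wall 3-4 (0.324 CPM).

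Among the ADAM relatives Adam9 had 5.96 ± 5.84 CPM in thrombus and 2.53 ± 2.19 CPM in vein wall, against 1.58 ± 0.214 CPM in spleen (SD). Adam33 reached 11.2 CPM in thrombus 3, and Adam4 reached 9.06 CPM in spleen 2. Adamts6 had 28.5 ± 15.8 CPM in thrombus and 57.2 ± 44.0 CPM in vein wall, against 28.5 ± 15.1 CPM in spleen, and Adamts10 had 26.7 ± 15.9, 10.4 ± 2.83 and 30.7 ± 18.0 CPM in thrombus, vein wall and spleen. Adamts13, whose product cuts von Willebrand factor, stayed at or under 1.12 CPM in every sample.

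Of 4 other inhibitor genes 1 was tested. This was Reck, which encodes a membrane-anchored inhibitor of metalloproteinases, including MMP-9, MMP-14 and ADAM10. It had 9.34, 11.3, 7.51 and 1.58 CPM in thrombus 1 to 4, against 16.02, 4.08 and 17.5 CPM in vein wall 1, 2 and 3-4, and 2.59, 0 and 0 CPM in spleen 1, 2 and 3-4. All vein wall samples exceeded all spleen samples, whereas thrombus 4 lay below spleen 1. How many of all tested genes lay higher in every vein wall sample is not given here. Reck had a log2 fold change of 3.14 ± 1.62 in thrombus (adjusted p = 1.00, edgeR) and 3.89 ± 1.72 in vein wall (unadjusted p = 0.0366, adjusted p = 0.885), and neither passed. With file set as a covariate these were 7.03 ± 2.11 (adjusted p = 0.262, edgeR) and 8.42 ± 2.31 (adjusted p = 0.193). As 2 of the 3 spleen samples had 0 reads, the size of these fitted values is uncertain. Timp3, an inhibitor of ADAM17, and A2m, the alpha-2-macroglobulin gene, were at or under 0.972 CPM in every sample.

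All 14 partner and activator genes had a read, and 9 were tested. Bsg, which encodes the metalloproteinase inducer CD147, had 292.0 ± 9.04 CPM in thrombus and 299.7 ± 38.5 CPM in vein wall, against 334.9 ± 61.1 CPM in spleen (SD). Frmd8, whose product stabilises the iRhom and ADAM17 complex, had 133.9 ± 45.1, 83.0 ± 10.03 and 124.6 ± 29.6 CPM in thrombus, vein wall and spleen. Tspan14, the gene of a tetraspanin that accompanies ADAM10, had 81.2 ± 24.3, 50.8 ± 17.0 and 39.3 ± 29.0 CPM. The log2 fold changes of these 3 genes against spleen ranged from -0.59 (Frmd8 in vein wall) to 1.05 (Tspan14 in thrombus).

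Among 18 genes of shed substrates 16 were tested. Areg, which encodes amphiregulin, an epidermal growth factor receptor ligand released by ADAM17, had 389, 86.3, 255 and 269 CPM in thrombus 1 to 4, against 110, 259 and 319 CPM in vein wall 1, 2 and 3-4, and 25.1, 1.29 and 6.25 CPM in spleen 1, 2 and 3-4. Every thrombus and vein wall value lay above every spleen value, while thrombus and vein wall overlapped. The share of all tested genes that lay higher in this way is not given here. The fitted log2 change of Areg was 4.53 ± 1.02 in thrombus (adjusted p = 0.411, edgeR) and 4.41 ± 1.04 in vein wall (adjusted p = 0.408), and it was 5.13 ± 0.39 and 5.52 ± 0.43 with file set as a covariate, where it passed in both (adjusted p = 1.30e-06 and 1.39e-06). Il1r2, the decoy receptor gene of interleukin 1, had 355.7 ± 266.7 CPM in thrombus and 393 ± 181 CPM in vein wall, against 449 ± 364 CPM in spleen, with log2 fold changes of -0.34 ± 0.62 and -0.19 ± 0.67.

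Across the 10 samples some members varied together, given here as Pearson's r of log2 CPM and as a description only, since the samples share sets and libraries of unequal depth. Adam12 and Adam19 had r = 0.77, Adam8 and Adam17 had 0.69, Adam15 and Timp2 had 0.64, and Mmp9 and Adam12 had -0.72; the other 32 pairs lay between -0.58 and 0.56. The genes most like Mmp14, the more variable of the metalloproteinase genes, were Safb (0.93), Usp48 (0.92) and Gpatch3 (0.91). Those most like Adam12 were Adipoq (0.93), Gen1 (0.92) and Fancc (0.89), where Adam12 itself was at or near 0 in most samples. Those most like Timp2 were Endog (0.95), Ube2m (0.95) and Btbd1 (0.94).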

How the data were processed

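Per the labels' protocols, cDNA of sorted Treg was amplified for 12 cycles with a SMART-Seq v4 kit, with 2 ng of RNA as input, and 1 ng of it was used for each Nextera XT library. The deposited files give counts of total exon, unique exon, intron and gene reads for each gene. The submitters' processing notes name GRCm38 as the build; aligner and counter: not given in the sources used here. Reads with more than 1 match made up 13.6% to 21.8% of exon reads. The 3 sets of files were joined on 21899 shared Ensembl IDs and by symbol or synonym to the NCBI gene models of set 2, which gave 20857 genes with 92.3% to 96.3% of exon reads.

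Replicate libraries were compared by the mean chi-square of genes with at least 40 reads over both. It was 3.95 for spleen 3 and 4 and 2.56 for vein wall 3 and 4, above the 1 that counting noise gives but far under the 96.8 or more of the other 16 pairs. The test on these counts was that of edgeR 4.0.16 under R 4.3.3 (TMM, default filter on low counts, robust quasi-likelihood F test, tissue as the single factor, 10 samples, called at an adjusted p under 0.05) and DESeq2 1.42.0 as an alternative. The scripts were tested on simulated data. Log2 CPM used a prior count of 2, and differences within a set are of that scale, with no test. Genes named besides the 10 are those of the lists that passed, the 3 of each list with the highest mean per kb, and the 3 most correlated with the most variable member of each role. Of these, 1 gene of the shed substrates is not reported here. The genes and lists were chosen with earlier results of these data known. Alternatives were the 12 libraries separately, set of files as covariate, replicate block, RLE factors, no filter, unique reads, gene reads (added after seeing the data) and leaving out each library. The exp numbers 1 to 4 recur in each tissue, but the labels do not say that a number marks the same mice or day. The samples were therefore not taken as paired. Deviations from the group means correlated at -0.10 to 0.45 between libraries of the same number, not above 0.1 in every pair. Spleen 1 with thrombus 1 and spleen 2 with thrombus 2, which share a set, gave 0.45 and 0.32. Vein wall 1 and 2 were in other sets than the libraries of their number and gave -0.10 to 0.019 with them. Number and set are mixed here, so these correlations cannot decide if a number pairs the tissues. The levels per kb divide CPM by the exon length of the file.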

Additional observations from a re-analysis of the deposited data

Results flagged for a closer look

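Each of the 10 genes was checked for a thrombus sample far from the other 3, by the gap to the nearest value over the whole range. For normally distributed values chance flags about 1 in 20 such groups. Skewed CPM values with many at 0 are not of that kind, so the number of flags cannot be set against this rate. A gene with reads in a single thrombus sample, as Timp1, is always flagged. In 3 genes a sample stood apart. Adam12 had 3.24 CPM in thrombus 4, against at most 0.130 CPM in the other thrombus samples. Timp1 had 0.0927 CPM in thrombus 4, which is 1 read, against 0 in the others. Timp2 had 128 CPM in thrombus 3, against at most 34.9 CPM in the others. Intron reads, which the comparisons do not use, were present for Adam12 in all 12 libraries, with at least 14 in each, above the 3 reads that a count of 0 allows.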

How the results depend on the processing

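No gene of the 10 was called under any alternative that was run (0 of 618 values at an adjusted p under 0.05, 20 at an unadjusted one), and 12 of 27 fold changes kept their direction in all of them. Counts of all genes called moved. Thrombus against spleen gave 17, and 35 with 12 separate libraries, 53 with set as covariate, 52 with the replicate block (12 libraries), 105 with DESeq2, 80 with no filter, 9 with gene reads, 44 with set but without thrombus 2, and 6 to 34 leaving out 1 library. Vein wall against spleen gave 13, and in that order 51, 48, 65, 119, 66 and, with unique reads, 7, 48 with set but without thrombus 2, and 5 to 28 leaving out 1 library. The 2 comparisons gave 34 and 28 calls without spleen 1, 6 and 5 without spleen 2, and 8 and 6 without spleen 3-4. Thrombus against vein wall gave 0, but 10 with DESeq2, 2 with no filter, 1 with set but without thrombus 2 and 0 leaving out 1 library. Each library correlated best with its own number in 9 of 24 cases. Each case was a choice among the 4 libraries of another tissue, so some such cases arise by chance. Spleen 3 and 4, and vein wall 3 and 4, are near-duplicates, and number and set are mixed. This count therefore cannot decide if a number pairs the tissues. Under the replicate block Timp2 was -1.19 in thrombus (adjusted p = 0.330, edgeR) and -1.28 in vein wall (adjusted p = 0.171) against spleen, and each thrombus and vein wall sample was below the spleen sample of its number.

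Values (log2) of opposite sign are given next. In thrombus against spleen, Mmp9 was -0.044 under the replicate block and -0.29 with set but without thrombus 2. Adam8 was -0.16 with 12 libraries, -0.48 with set, -0.85 under the block, -0.074 with gene reads and -0.086 with set but without thrombus 2. Adam15 was -0.016 with 12 libraries, -0.0043 with set, -0.27 under the block, -0.11 with unique and -0.23 with gene reads. Leaving out 1 library gave -0.72 to 0.65 for Mmp9, -1.03 to 0.35 for Adam8, -0.53 to 0.62 for Adam15 and -0.49 to 0.18 for Adam19; leaving out the summed spleen 3-4 gave 0.72 for Adam8. In vein wall against spleen, Adam10 was 0.062 with 12 libraries, and Adam15 was 0.53 with set, 0.17 with unique reads and 0.20 with set but without thrombus 2. Leaving out 1 library gave -0.20 to 0.21 for Adam10, -0.80 to 0.24 for Adam15 and -0.32 to 0.27 for Adam19. Leaving out the summed vein wall 3-4 gave -0.64, -0.99 and -0.38, and set without thrombus 2 gave -0.46 for Adam19.

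In thrombus against vein wall, Adam10 was -0.11 with 12 libraries, -0.028 under the block, -0.022 with no filter and -0.045 with gene reads. Adam12 was 0.18 with gene reads, and Mmp14 0.31 with set but without thrombus 2. Adam15 was -0.54 with set, -0.051 under the block and -0.28 with unique reads. Adam17 was 0.057 with 12 libraries, 0.066 under the block and 0.045 with gene reads, and Adam19 was -0.0034, -0.041 and -0.12 in that order. Leaving out 1 library gave -0.95 to 0.30 for Mmp14, -0.24 to 2.18 for Adam8, -0.27 to 0.13 for Adam10, -1.32 to 0.51 for Adam12, -0.19 to 0.76 for Adam15, -0.52 to 0.47 for Adam17, -0.36 to 0.30 for Adam19 and -0.49 to 0.62 for Timp2. Leaving out the summed vein wall 3-4 gave 0.56 for Adam10, 1.02 for Adam15, 0.33 for Adam19 and 1.06 for Timp2. The cause was not tested. Without thrombus 4, Adam12 did not pass the filter and gave no value. Low read counts limit Mmp14, Adam12 and Timp1, which had 0 reads in at least 1 library. The zeros were not confined to shallow libraries. Mmp14 had 0 reads in thrombus 2 with 22038420 total exon reads, but 9 in thrombus 3 with 9719151. Adam12 had 0 exon reads in every set 2 library, and Timp1 had 0 in spleen 3 with 55386086. The cause of these zeros was not tested.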
